A study of Elaeis guineensis with 18 samples.

Results

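Leaves of oil palm (Elaeis guineensis) seedlings that received no water were compared directly with leaves of seedlings watered with a salt solution. The comparison used the 3 drought and the 3 salinity libraries, chosen by their treatment labels, 6 of the 18 RNA-Seq libraries of the series, with the 3 control libraries as a reference level only. All 3 groups were wildtype Deli Dura seedlings kept in soil in a greenhouse at 28 °C for 2 weeks of treatment. Drought seedlings received 0 mL of water, salinity seedlings 200 mL of 0.2 M NaCl per day and control seedlings 200 mL of water per day, so that drought and salinity leaves differed both in the water and in the salt they were given. Each library pooled the third leaf of 3 seedlings, which averages over the cell types of the leaf and over the seedlings pooled.

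Both treatments lower the water potential around the root, so the osmotic part of the stress is shared, whereas salt also brings sodium and chloride ions into the plant. Plants answer water shortage with the hormone abscisic acid (ABA), whose receptors inhibit protein phosphatases and thereby release protein kinases that close stomata and switch on stress genes. Molecular chaperones keep proteins folded as cells dry, sugars such as trehalose take part in signalling and osmotic adjustment, and the light-harvesting proteins of the chloroplast are commonly regulated when gas exchange falls.

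Gene levels are given as CPM, the read count of a gene per 1000000 counts of the scaled library total, for each library, in the order of the library numbers. A change is the log2 fold change (log2FC) of drought minus salinity with its standard error, so that positive values are higher in drought. A DEG had an adjusted p under 0.05 in edgeR's quasi-likelihood test, with Benjamini-Hochberg adjustment over all genes tested, and a difference of at least 2-fold. The function of a gene is given only where the study described it or listed it under a gene ontology (GO) term, and a list here holds the genes that the study's enrichment tables name for a term, which are those it found changed under the stress of that table.

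Total counts ran from 16987168 to 21897603 in drought, 19343132 to 21291508 in salinity and 17434882 to 18103289 in control libraries, and 23830 of 30606 genes had enough reads to be tested. Spearman correlations over genes were 0.983 to 0.987 within drought, 0.978 to 0.986 within salinity, 0.962 to 0.976 between drought and salinity and 0.908 to 0.937 between these libraries and control. The genes of 21 light-harvesting proteins held 3.05 to 9.70% of the counts of the 9 libraries, whereas 7 floral MADS-box genes summed to 1.40 to 2.58 CPM with 3 or 4 of them at 0 in each library. In such bulk leaf RNA, fewer cells of a type and less RNA per cell cannot be told apart. Nothing in the sources says that seedlings of different libraries were grown apart, so p-values measure the spread between these libraries.

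A total of 661 DEGs separated drought from salinity leaves, 2.77% of the genes tested. Of these, 271 were higher in drought (1.14% of the genes tested) and 390 were higher in salinity (1.64%), with a median absolute log2FC of 1.46. The difference was over 4-fold for 171 genes, of which 62 were higher in drought and 109 in salinity. An unadjusted p under 0.05, which is given below for some lists, was found for 5933 genes (24.9%). The libraries of the groups did not overlap for 657 of the 661 DEGs, against 31.4% of all genes tested. For comparison, the same thresholds called 4209 genes (17.7%) between drought and control and 3683 (15.5%) between salinity and control, which share the control libraries. For 15835 genes (66.4%) the 95% confidence interval of the difference between drought and salinity lay within 2-fold, while 7328 genes that were not called had an interval that reached 2-fold.

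**Figure D1:**
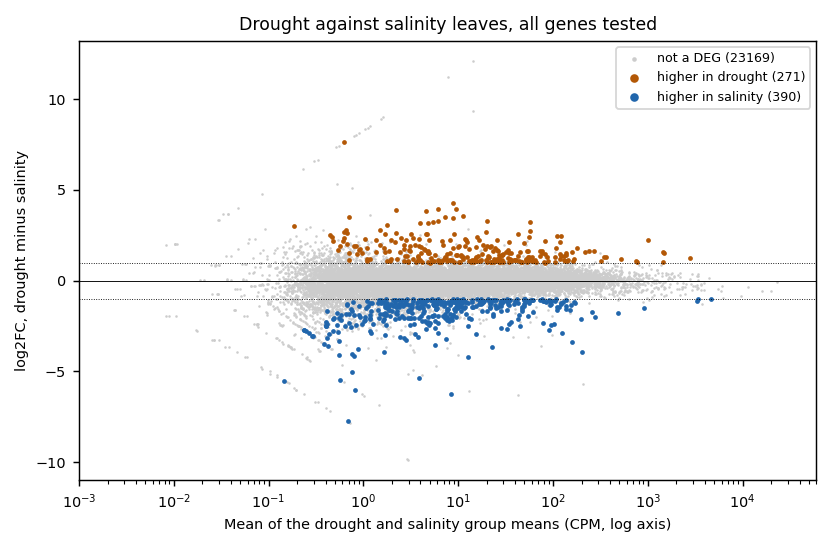
Each point is a gene, with the mean of the drought and salinity CPM on a log axis and the log2FC of drought minus salinity on the vertical axis; dotted lines mark 2-fold. The 271 DEGs higher in drought are brown and the 390 higher in salinity are blue; 6 genes under 0.001 CPM lie off the axis.

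The direction in which most DEGs lay was not stable. Without drought library 1, 313 DEGs were called, 185 higher in drought and 128 higher in salinity. Without salinity library 1 the 444 DEGs divided into 225 and 219, and without drought library 2 the 413 DEGs into 203 and 210. By adjusted p alone, with no minimum fold, 1226 genes were higher in drought (5.14%) and 782 in salinity (3.28%). Each of the 661 DEGs kept its sign whichever of the 6 libraries was left out, and 223 stayed past the thresholds in all 6 of these fits, 125 of them higher in drought and 98 higher in salinity. The genes described first in each group below are among these 223 unless a lost call is given.

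**Figure D2:**
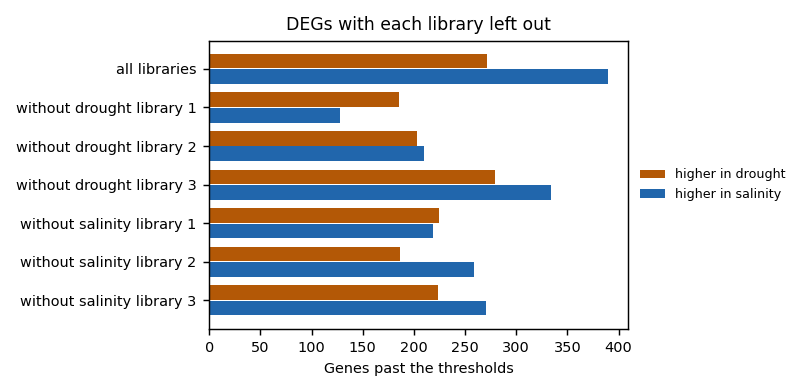
The bars give the number of DEGs higher in drought (brown) and higher in salinity (blue) with all libraries and with each library of the comparison left out. The larger bar is blue with all libraries (271 and 390) and brown without drought library 1 (185 and 128).

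Heat-response and chaperone genes were among those with the largest differences towards drought. Of 12 tested genes listed under response to heat, 3 were DEGs higher in drought (25%, against 1.14% of all genes tested) and none was higher in salinity. All 12 had a positive log2FC, against 12376 of all 23830 genes tested. Their median was 0.37, against 0.02 over all genes tested. The study listed this term for its heat treatment, which did not use the drought or salinity libraries. By adjusted p alone, 5 of the 12 were higher in drought, against 5.14% of all genes tested.

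The chaperone gene LOC105032307, listed under ATP-dependent protein folding, had 18, 10.6 and 21.5 CPM in the drought libraries, 1.44, 0.753 and 0.476 in salinity and 0.0503, 0.36 and 0 in control. It was low in every salinity library and nearly silent in control, and the drought libraries stood far above both (log2FC = 4.26 ± 0.54, adjusted p = 0.000354). LOC105038674, listed under protein folding and unfolded protein binding, was more even within its groups, with 20.6, 19.2 and 19.3 CPM in drought, 3.01, 4.57 and 4.28 in salinity and 1.71, 1.65 and 1.52 in control (log2FC = 2.31 ± 0.26, adjusted p = 0.000186). The heat-response gene LOC105042708 had 71.7, 81.4 and 64 CPM in drought, 13.6, 11.2 and 11.4 in salinity and 0.855, 1.03 and 0.861 in control (log2FC = 2.58 ± 0.36, adjusted p = 0.000613). Its neighbour in the gene order of the EG11 assembly, LOC105042707, is listed under the same term and was expressed at 370.5, 288 and 312 CPM in drought, 106, 93.1 and 122 in salinity and 12.2, 14.7 and 10.9 in control (log2FC = 1.60 ± 0.20, adjusted p = 0.000313). For both neighbours the salinity libraries lay between control and drought without overlap. If they are near-identical copies, reads could have been shared between them by the counting, which was not tested.

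Smaller differences were seen in other chaperone genes. LOC105048385, listed under chaperone binding, had 83.3, 100 and 86.8 CPM in drought against 40.4, 39.3 and 42.1 in salinity (log2FC = 1.15 ± 0.22, adjusted p = 0.00492). LOC105049549, listed under protein refolding and response to heat, had 41.5, 35.7 and 41.3 CPM in drought, 17.1, 19.7 and 20.9 in salinity and 15.8, 18.8 and 17.3 in control, so that its salinity libraries lay close to control (log2FC = 1.03 ± 0.11, adjusted p = 0.000114). Its difference sat at the 2-fold limit and fell to 1.00 without drought library 1 and 0.96 without salinity library 1. The same held for LOC105036067, a protein folding chaperone with 94.7, 82.3 and 89.3 CPM in drought and 45.3, 44.1 and 40.7 in salinity (log2FC = 1.03 ± 0.09, adjusted p = 5.31e-05; 0.98 without drought library 1 and 0.99 without salinity library 3). LOC105050739, a chaperone gene with 142, 183 and 81 CPM in drought, 37.7, 17.6 and 34.3 in salinity and 2.11, 0.874 and 2.73 in control, spread more widely within its groups (log2FC = 2.18 ± 0.57, adjusted p = 0.0284). Its call was lost without any 1 of drought library 1 or 2 or the 3 salinity libraries (adjusted p = 0.0819, 0.0936, 0.0613, 0.107 and 0.0709). In the opposite direction, LOC105032887, listed under protein refolding, had 1.73, 1.99 and 1.97 CPM in drought and 5.08, 5.27 and 3.38 in salinity (log2FC = −1.27 ± 0.31, adjusted p = 0.0192), a call that was lost without drought library 1 or 2 or salinity library 1 or 2 (adjusted p = 0.0883, 0.056, 0.0614 and 0.0683).

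The chaperone lists differed in how many DEGs they held. The study's tables show the term ATP-dependent protein folding chaperone, listed for its heat treatment, for 30 tested genes, of which 4 were higher in drought and none in salinity, with a median log2FC of 0.23, against 1.14% of all genes tested that were higher in drought. These are LOC105032307, LOC105038674, LOC105036067 and LOC105050739 above. Of 26 tested genes for unfolded protein binding, 1 was higher in drought (2 without drought library 3) and 8 passed the adjusted p alone, all 8 higher in drought, with a median log2FC of 0.32. None of 11 genes for binding Hsp90, the chaperone that matures kinases and receptors, was a DEG, although all 11 had a positive log2FC (median 0.42), 8 had an unadjusted p under 0.05 (24.9% over all genes tested), 4 passed the adjusted p alone and DESeq2 called 1. Among them LOC105043585 had 165, 173 and 169 CPM in drought and 107, 102 and 105 in salinity, groups that did not overlap, with a difference whose interval lay inside 2-fold (log2FC = 0.69 ± 0.09, adjusted p = 0.000358; 95% interval 0.50 to 0.88). Of 19 genes for chaperone binding, a term the study listed for drought among other stresses, 1 was higher in drought, and the median was −0.01.

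**Figure D3:**
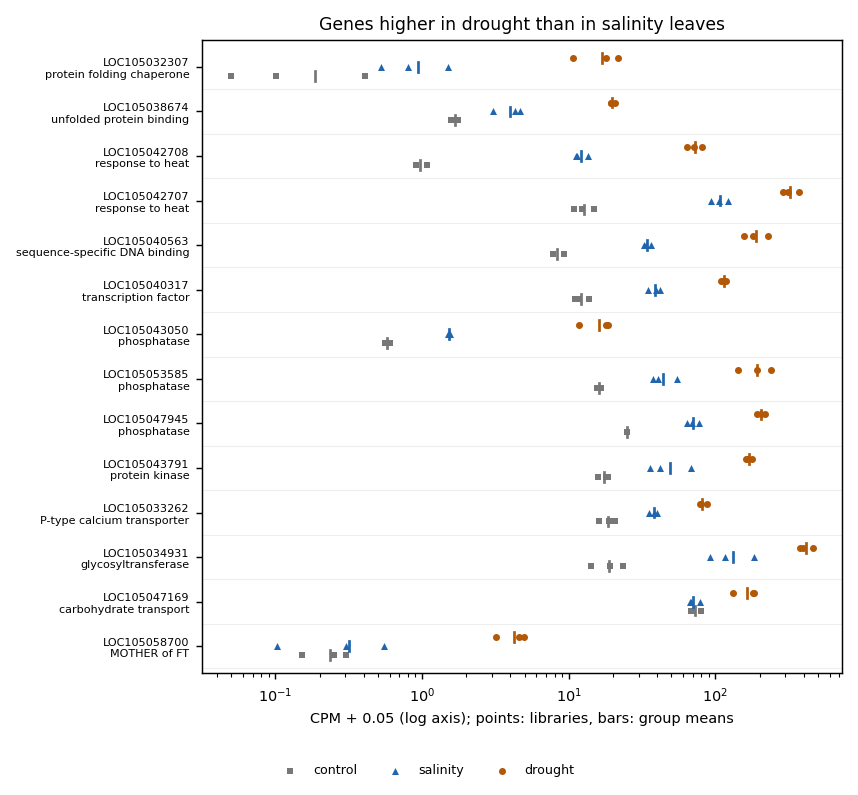
CPM of 14 genes higher in drought, with 0.05 added so that 0 can be drawn on the log axis; points are libraries and bars are group means, with drought in brown, salinity in blue and control in grey. In all 14 the drought libraries lie above the salinity libraries, and in most of them the salinity libraries lie above control, as for LOC105042708; for LOC105047169 salinity and control overlap.

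Transcriptional regulators differed in both directions. The study's tables show sequence-specific DNA binding for 44 tested genes, of which 3 were higher in drought and none in salinity (median log2FC 0.17), DNA-binding transcription factor activity for 47, of which 2 were higher in drought and 1 in salinity (median 0.11), and regulation of transcription for 58, of which 3 were higher in each direction (median 0.03). DNA-binding transcription factor activity was among the top terms of the study's drought treatment, so it was partly chosen on these libraries. LOC105040563, listed under sequence-specific DNA binding, had 157, 227 and 179.8 CPM in drought, 36.5, 33.5 and 32.7 in salinity and 7.8, 7.71 and 9.27 in control (log2FC = 2.46 ± 0.30, adjusted p = 0.000251). LOC105040317, listed as a DNA-binding transcription factor, showed the smallest adjusted p of the genes named here, with 109.6, 119 and 112 CPM in drought and 39.5, 41.8 and 34.7 in salinity (log2FC = 1.55 ± 0.12, adjusted p = 2.50e-05). For both the salinity libraries lay between drought and control. LOC105033559, listed under regulation of transcription, had 27.3, 33.4 and 26.1 CPM in drought but 7.6, 6.92 and 7.72 in salinity and 5.49, 4.89 and 4.56 in control, with salinity close to control (log2FC = 1.96 ± 0.17, adjusted p = 5.31e-05). LOC105044477, also listed under sequence-specific DNA binding, differed in its order, with 16.8, 8.91 and 7.38 CPM in drought, 2.45, 2.26 and 2.43 in salinity and 7.25, 4.01 and 6.03 in control (log2FC = 2.21 ± 0.37, adjusted p = 0.00243), since its salinity libraries were the lowest of the 9.

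Of the regulators higher in salinity, LOC105034225 and LOC105038579 were lowest in drought. LOC105034225, a DNA-binding transcription factor, had 1.88, 1.35 and 1.72 CPM in drought, 10.4, 5.37 and 3.6 in salinity and 6.59, 8.43 and 8.4 in control (log2FC = −1.95 ± 0.34, adjusted p = 0.00273). LOC105038579, listed under regulation of transcription, had 4.15, 5.39 and 5.59 CPM in drought, 15.9, 23.6 and 23.6 in salinity and 48.5, 51.8 and 41.7 in control (log2FC = −2.07 ± 0.34, adjusted p = 0.00184). Control was the highest of the 3 groups for LOC105038579, and overlapped salinity for LOC105034225. LOC105038150, chosen after its values were seen as the remaining gene of the term regulation of transcription that was higher in salinity, had 6.47, 6.61 and 5.96 CPM in drought, 15.1, 11.7 and 12.3 in salinity and 4.13, 4.17 and 6.18 in control, so that its salinity libraries lay above both other groups (log2FC = −1.03 ± 0.26, adjusted p = 0.023). Its call was lost without any drought library or without salinity library 1 (adjusted p = 0.0801, 0.0624, 0.0659 and 0.0818).

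Protein phosphatases, which remove phosphate groups from proteins and among which the type 2C enzymes hold back ABA signalling in Arabidopsis, were mostly higher in drought where they differed. Of 36 tested genes for phosphoprotein phosphatase activity, 6 were higher in drought and 1 was higher in salinity, and 30 had a positive log2FC with a median of 0.39. By adjusted p alone 12 were higher in drought and 1 in salinity. The term was listed by the study for drought and waterlogging, so it was partly chosen on these libraries. Without salinity library 2 the count higher in drought was 3. Of the 6, 5 are also among 26 genes for cation binding, of which 5 were higher in drought and none in salinity (median 0.53; 3 without salinity library 2).

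The largest difference of the phosphatases was that of LOC105043050, with 11.8, 18.6 and 17.8 CPM in drought, 1.51, 1.46 and 1.48 in salinity and 0.553, 0.514 and 0.506 in control (log2FC = 3.43 ± 0.55, adjusted p = 0.00178). Drought was far from both other groups, and its lowest library was well above every salinity library. LOC105053585 was more abundant, with 192, 238 and 143 CPM in drought, 54.5, 37.4 and 40.7 in salinity and 16.6, 16.1 and 15.5 in control (log2FC = 2.11 ± 0.42, adjusted p = 0.00698). LOC105047945 had 204, 217 and 192 CPM in drought, 77.2, 68.8 and 63.6 in salinity and 25, 24.9 and 24.7 in control and was even within each group (log2FC = 1.55 ± 0.15, adjusted p = 8.59e-05). All 3 kept the order of drought above salinity above control with no overlap. LOC105044347 (61.4, 78.2 and 61.4 CPM in drought, 22.7, 18.2 and 26.8 in salinity) and LOC105050830 (184, 207 and 178 and 102, 78.3 and 89.6) lost their calls without salinity library 2 (adjusted p = 0.051 for the former and log2FC = 0.98 for the latter, against 1.57 ± 0.34 and 1.07 ± 0.13). LOC105038138, with 3.36, 5.58 and 3.13 CPM in drought and 1.7, 2.21 and 1.8 in salinity, was just past the threshold (log2FC = 1.07 ± 0.32, adjusted p = 0.0494) and was not called without drought library 1 or 2 or any salinity library (adjusted p = 0.0844, 0.197, 0.136, 0.0837 and 0.125). It was also lost with DESeq2 size factors and library totals (adjusted p = 0.0533 and 0.0574).

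Protein serine/threonine phosphatase activity is shown in the study's tables, which list it for drought and waterlogging too, for 39 tested genes, of which 7 were higher in drought and none in salinity, with a median log2FC of 0.28. Of these 7, LOC105043050, LOC105053585, LOC105047945, LOC105044347 and LOC105050830 are among the phosphatases above, and LOC105054319 and LOC105039916 are the others. LOC105054319 had 59.7, 46.9 and 57.9 CPM in drought and 28.4, 18.4 and 27 in salinity (log2FC = 1.16 ± 0.19, adjusted p = 0.00232) and fell to 0.99 without salinity library 2, just inside 2-fold. LOC105039916 had 99.6, 128 and 105 CPM in drought, 48.8, 26.6 and 31.1 in salinity and 11.3, 14 and 12.2 in control (log2FC = 1.64 ± 0.30, adjusted p = 0.00425). The exception in the opposite direction was LOC105050192, a gene for protein dephosphorylation with 2.72, 3.01 and 2.4 CPM in drought, 4.58, 5.07 and 7.14 in salinity and 1.66, 1.13 and 1.98 in control (log2FC = −1.05 ± 0.28, adjusted p = 0.0336). Its call was lost without any drought library or without salinity library 2 or 3 (adjusted p = 0.11, 0.0696, 0.0952, 0.0604 and 0.128). None of 4 genes that the study described as type 2C phosphatases was a DEG in edgeR, DESeq2 or limma, and 1 had an unadjusted p under 0.05.

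Protein kinases and calcium transport also included genes higher in drought. LOC105043791, a protein serine/threonine kinase, had 163, 178 and 165 CPM in drought, 68, 35.9 and 42.1 in salinity and 18.6, 15.7 and 17.8 in control (log2FC = 1.79 ± 0.18, adjusted p = 0.000105), with salinity library 1 the highest of its group. LOC105043186, another kinase, was expressed at lower levels, 9.48, 5.51 and 7.07 CPM in drought, 1.95, 2.06 and 3.01 in salinity and 2.31, 1.39 and 2.23 in control, and its salinity and control libraries overlapped (log2FC = 1.65 ± 0.34, adjusted p = 0.0079). The study's tables show 30 tested genes with this kinase term, of which 3 were higher in drought and none in salinity, with a median log2FC of −0.02. LOC105033262, a P-type calcium transporter, which pumps calcium ions out of the cytosol, had 86.9, 79.1 and 77.9 CPM in drought, 39.9, 35.4 and 38.2 in salinity and 20.7, 18.9 and 16.1 in control (log2FC = 1.10 ± 0.10, adjusted p = 5.31e-05). It was 1 of 7 tested genes of that term to be called, a term the study listed for drought and so partly chosen on these libraries. None of the 9 calcium-related genes that the study described in its core response was a DEG in edgeR, DESeq2 or limma, and 2 had an unadjusted p under 0.05, a share below the 24.9% of all genes tested.

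Sugar metabolism and transport differed gene by gene. LOC105034931, listed under glycosyltransferase activity and carbohydrate metabolism, had 394, 465 and 378 CPM in drought, 184, 92 and 116 in salinity and 19.1, 14 and 23.4 in control (log2FC = 1.66 ± 0.28, adjusted p = 0.00267). The 18 tested genes for carbohydrate transport included 3 that were higher in drought and 2 that were higher in salinity, with a median log2FC of 0.04. This term was listed by the study for drought, so it was partly chosen on these libraries. LOC105038333 had 10.03, 7.7 and 6.52 CPM in drought, 1.44, 1.91 and 0.74 in salinity and 0.101, 0.103 and 0.81 in control (log2FC = 2.56 ± 0.50, adjusted p = 0.00643). LOC105037698 and LOC105047169 were above both other groups in drought alone. The former had 48.8, 39.6 and 38.2 CPM in drought, 18.7, 14.1 and 14.8 in salinity and 18.8, 20.9 and 21.4 in control (log2FC = 1.41 ± 0.21, adjusted p = 0.00106), and the latter 179.9, 182 and 131, 68, 77.9 and 66.5 and 79.4, 68 and 69.97 (log2FC = 1.22 ± 0.13, adjusted p = 0.000155).

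Both carbohydrate transport genes that were higher in salinity lost their calls more often. LOC105032731 had 7.71, 7.95 and 6.09 CPM in drought and 10.4, 16.4 and 19.9 in salinity (log2FC = −1.10 ± 0.31, adjusted p = 0.0399) and was lost without any drought library or without salinity library 2 or 3 (adjusted p = 0.109, 0.0851, 0.114, 0.0992 and 0.137). LOC105040718 had 1.53, 2.12 and 2.95 CPM in drought and 5.27, 4.26 and 3.97 in salinity (log2FC = −1.04 ± 0.30, adjusted p = 0.0463) and was lost without drought library 1 or 2 or any salinity library (adjusted p = 0.192, 0.122, 0.138, 0.0901 and 0.0725). With library totals in place of the scaling factors neither was called.

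Trehalose is a disaccharide whose phosphate form signals sugar status. The study listed its biosynthesis for drought and waterlogging and named 12 of the 19 genes of the term, all of which were tested. They were thus partly chosen on these libraries. A DEG was found in 1 of them, and the median log2FC of the 12 was 0.61 with 7 positive and 5 negative. LOC105053174 had 104, 59.4 and 85.1 CPM in drought, 45.6, 30.8 and 41.1 in salinity and 157, 146 and 154 in control (log2FC = 1.08 ± 0.19, adjusted p = 0.00319). Both stresses lay below control for this gene, salinity further than drought, and the difference fell to 0.88 without drought library 1 and 0.94 without salinity library 2. LOC105039584, with 368, 317 and 357 CPM in drought, 278, 106 and 174 in salinity and 48.1, 47.6 and 62.2 in control, missed the thresholds (log2FC = 0.90 ± 0.28, adjusted p = 0.0599), and its salinity libraries differed widely among themselves.

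The study had picked 10 genes as prominent in drought and unique to it, so their direction is not independent of the drought libraries. All 10 had a positive log2FC, with a median of 1.61, but 1 was a DEG (4 with DESeq2 and 3 with limma). This was LOC105058700, described as MOTHER of FT, a relative of the flowering gene FT that is known in Arabidopsis for its role in seed germination under ABA. It had 4.54, 4.87 and 3.13 CPM in drought, 0.251, 0.502 and 0.0529 in salinity and 0.201, 0.103 and 0.253 in control, and its drought libraries stood above all others (log2FC = 3.91 ± 0.64, adjusted p = 0.00187). Of 11 genes that the study had picked in the same way for salinity, 5 had enough reads to be tested. None of the 5 was a DEG in edgeR (3 had an unadjusted p under 0.05 and DESeq2 called 1), and all 5 were negative with a median of −1.60, while the other 6 had 20 to 34 reads in all over the 3 salinity libraries and 7 to 20 over the 3 drought libraries.

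**Figure D4:**
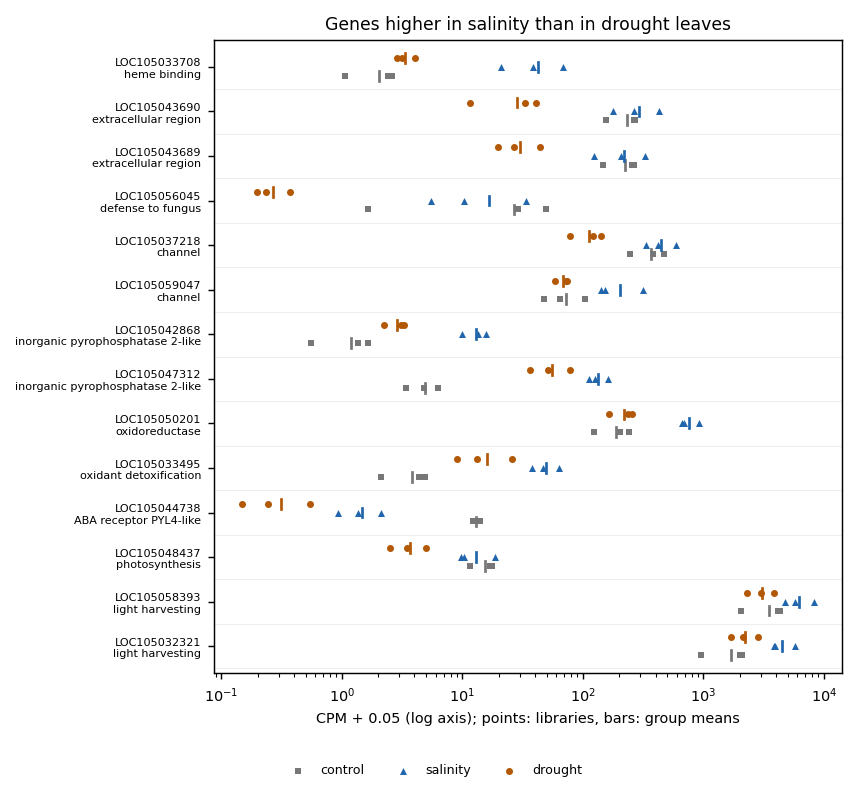
CPM of 14 genes higher in salinity, drawn as for the genes higher in drought, with 0.05 added on a log axis, points for libraries and bars for group means. The salinity libraries (blue) lie above the drought libraries (brown) in all 14, and control (grey) lies near salinity for LOC105037218, near drought for LOC105059047 and above both for LOC105044738.

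Genes with large differences towards salinity included a heme-binding gene and genes of the extracellular region. The term heme binding, carried by heme enzymes such as peroxidases and cytochromes P450, is shown for 53 tested genes, of which 2 were higher in each direction, with a median log2FC of −0.08. Of these LOC105033708 had 3.11, 2.82 and 4 CPM in drought, 67.9, 38.7 and 20.9 in salinity and 1.01, 2.57 and 2.38 in control (log2FC = −3.68 ± 0.51, adjusted p = 0.000572). It was high in salinity leaves alone, and the lowest salinity library was above every other library. LOC105043690, listed under extracellular region, had 11.4, 33 and 40.9 CPM in drought, 429, 177 and 267 in salinity and 155, 264 and 272 in control (log2FC = −3.36 ± 0.73, adjusted p = 0.0112). LOC105043689, listed under the same term, followed it library by library with 19.8, 26.7 and 43.7, 328, 124 and 208 and 145, 264 and 255 CPM (log2FC = −2.87 ± 0.63, adjusted p = 0.012). For both it was drought that stood apart, while salinity and control overlapped. Without drought library 1 the adjusted p of LOC105043690 was 0.0602, and that of LOC105043689 was 0.0697 (0.0544 without drought library 2). The study's tables show the term for 43 tested genes, of which 6 were higher in salinity and none in drought, with a median log2FC of −0.85.

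Genes for cellular oxidant detoxification, the removal of peroxides, were shown for 30 tested genes, of which 5 were higher in salinity and 1 was higher in drought (median −0.54). LOC105033495 had 25.5, 13.3 and 8.98 CPM in drought, 63.1, 37.8 and 46.7 in salinity and 2.06, 4.89 and 4.3 in control, so that both stresses lay above control (log2FC = −1.62 ± 0.33, adjusted p = 0.00779). LOC105048112 had 2.32, 0.962 and 1.35 CPM in drought, 4.64, 9.43 and 9.31 in salinity and 10.2, 8.85 and 5.11 in control, with drought alone below the others (log2FC = −2.31 ± 0.44, adjusted p = 0.00502). LOC105046862 went the opposite way, with 96.6, 89.1 and 71.9 CPM in drought, 30.9, 35.3 and 38.3 in salinity and 52.4, 38.2 and 37.3 in control (log2FC = 1.30 ± 0.17, adjusted p = 0.000365). The term therefore held genes of both directions and with different levels relative to control.

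LOC105050201 carries a GO term for oxidoreductases that reduce molecular oxygen to water while oxidising a pair of donors, as acyl desaturases do. It had 163, 236 and 257 CPM in drought, 915, 662 and 688 in salinity and 123, 242 and 204 in control (log2FC = −1.79 ± 0.25, adjusted p = 0.000642). Drought and control overlapped, and every salinity library was far above them. It was the only DEG among 4 tested genes of that term.

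The widest fold differences among the annotated DEGs came from genes that were almost silent in drought. LOC105056045, listed under regulation of the defense response to fungus, had 0.148, 0.321 and 0.184 CPM in drought, 5.46, 33.6 and 10.3 in salinity and 28.6, 1.59 and 49.4 in control (log2FC = −6.24 ± 1.56, adjusted p = 0.0229). LOC105056043 of the same term had 0, 0 and 0.0615, 0.314, 3.71 and 0.846 and 4.78, 0.154 and 4.96 CPM (adjusted p = 0.0457). It had 1 read in all over the drought and 95 over the salinity libraries, a ratio of 87.7 with a 95% exact interval of 15.4 to 3498 that covers counting error only. Salinity and control libraries spread over more than 5-fold in both genes, and control library 2 was the lowest of its group. The call of LOC105056045 was lost without any drought library or without salinity library 2 (adjusted p = 0.103, 0.073, 0.068 and 0.0786). That of LOC105056043 was lost without any library but salinity library 1 (adjusted p = 0.164, 0.128, 0.0957, 0.175 and 0.0603). The other 5 tested genes of the term were not called, and the median of all 7 was 0.33, opposite in sign to these DEGs. This term too was listed by the study for drought, so it was partly chosen on these libraries.

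Membrane channels are proteins that let water or solutes pass through a pore, and the few that were called were higher in salinity than in drought. Of 14 tested genes for channel activity, 2 were higher in salinity (14.3%, against 1.64% of all genes tested). None was higher in drought (1.14% of all genes tested). The median log2FC was −0.62, against 0.02 over all genes tested, and the study listed the term for its heat treatment. LOC105037218 had 78.2, 120.1 and 141 CPM in drought, 588, 331 and 419.9 in salinity and 247, 469 and 382 in control (log2FC = −1.98 ± 0.31, adjusted p = 0.00143). Here drought lay below both other groups, which overlapped. LOC105059047 had 74.3, 71.8 and 59 CPM in drought, 314, 141 and 153 in salinity and 64.5, 103 and 47.1 in control (log2FC = −1.57 ± 0.32, adjusted p = 0.00779). Here salinity lay above both other groups, which overlapped, and salinity library 1 was the highest.

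The study described 2 DEGs as inorganic pyrophosphatase 2-like, enzymes that split pyrophosphate into phosphate. LOC105042868 had 2.17, 3.21 and 3.01 CPM in drought, 15.6, 9.94 and 13.5 in salinity and 0.503, 1.59 and 1.32 in control (log2FC = −2.22 ± 0.33, adjusted p = 0.000929). LOC105047312 had 36.3, 51 and 78.2 CPM in drought, 112, 126 and 163 in salinity and 3.32, 4.78 and 6.28 in control (log2FC = −1.28 ± 0.30, adjusted p = 0.0182). For both genes the order was salinity above drought above control with no overlap. The call of LOC105047312 was lost without drought library 1 or 2 or salinity library 3 (adjusted p = 0.0926, 0.0679 and 0.0679).

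The ABA receptor gene LOC105044738, described as PYL4-like, was low in both stresses and lower in drought. It had 0.0988, 0.192 and 0.492 CPM in drought, 0.879, 1.3 and 2.06 in salinity and 12.6, 12.2 and 14 in control (log2FC = −2.47 ± 0.45, adjusted p = 0.00385). All 6 stress libraries lay below the control libraries, and the drought libraries lay below the salinity libraries. Fitted on the 6 drought and salinity libraries alone, its adjusted p was 0.0504.

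Photosynthesis genes leaned towards salinity, with list medians within 2-fold. Of 21 genes for light harvesting, the proteins that bind chlorophyll and pass energy to the photosystems, 20 had a negative log2FC with a median of −0.46, 2 were DEGs higher in salinity and none was higher in drought. The study listed the term for salinity among other stresses. For photosystem I 27 of 28 genes and for photosystem II 41 of 43 were negative, with the same 2 DEGs, and medians of −0.45 and −0.44. Intervals lay inside 2-fold for 9 of the 21, 13 of the 28 and 25 of the 43 genes. An unadjusted p under 0.05 was found for 8, 11 and 17 of them in edgeR, all higher in salinity. All 21 light-harvesting genes are in the photosystem I list and nearly all in the photosystem II list, so these counts are not separate. All 12 genes of the oxygen-evolving complex, which splits water, were negative (median −0.31) and none was called by edgeR, DESeq2 or limma, with 3 at an unadjusted p under 0.05 (24.9% over all genes tested) and 10 of 12 intervals inside 2-fold. Most of these 12 are also in the photosystem II list. With library totals in place of the scaling factors neither light-harvesting gene was called.

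LOC105058393 had 2301, 3031 and 3849 CPM in drought, 8238, 4793 and 5735 in salinity and 2030.0, 4168 and 4287 in control (log2FC = −1.03 ± 0.30, adjusted p = 0.046). LOC105032321 had 1695, 2135 and 2836 CPM in drought, 5734, 3836 and 3894 in salinity and 962, 2089 and 2012 in control (log2FC = −1.01 ± 0.28, adjusted p = 0.0381). In each gene the salinity libraries were above the drought libraries, with salinity library 1 the highest. The call of LOC105058393 was lost without drought library 1, 2 or salinity library 1 or 3 (adjusted p = 0.185, 0.119, 0.168 and 0.0783), and that of LOC105032321 without drought library 1, 2 or any salinity library (adjusted p = 0.162, 0.11, 0.141, 0.0561 and 0.0587). Without salinity library 1 the log2FC was −0.78 and −0.80. The share of all counts taken by the 21 genes was 4.08, 4.86 and 6.37% in drought, 9.70, 6.94 and 6.88% in salinity and 3.05, 5.53 and 5.90% in control. Thus the lowest salinity share was above the highest drought share, while control overlapped drought. A more stable call was LOC105048437, listed under photosynthesis, with 4.94, 2.44 and 3.44 CPM in drought, 18.7, 9.63 and 10.3 in salinity and 17, 17.4 and 11.4 in control (log2FC = −1.82 ± 0.31, adjusted p = 0.00266).

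Cell wall genes had negative list medians without passing the test. Of 17 genes for xyloglucan metabolism, by which the main hemicellulose of many primary walls is cut and rejoined, 15 were negative with a median log2FC of −0.85, and none was a DEG in edgeR. An unadjusted p under 0.05 was found for 6 of the 17, against 24.9% of all genes tested. The lowest, LOC105055894, had 0, 0 and 0.0615 CPM in drought, 2.07, 1.3 and 0.317 in salinity and 2.57, 0.977 and 7.49 in control and missed the threshold (adjusted p = 0.0509), with 1 read in all over the drought and 65 over the salinity libraries, a ratio of 60.0 (95% exact interval 10.4 to 2405, counting error only). DESeq2 called it (adjusted p = 0.00268). LOC105053821 had 7.06, 8.4 and 7.07 CPM in drought and 17.8, 8.58 and 15.3 in salinity (log2FC = −0.88 ± 0.29, adjusted p = 0.0728). Of 18 genes for cell wall biogenesis 15 were negative, with no DEG in edgeR, 6 at an unadjusted p under 0.05 (24.9% over all genes) and a median of −0.79. All 17 xyloglucan genes are among these 18, so the counts of both lists are not separate. DESeq2 called 2 genes higher in salinity in each of these lists and limma none. The study listed both terms for drought and salinity, so they were chosen on these libraries. For salinity it also listed the apoplast, the space outside the plasma membrane, and most genes of that list are in the lists above. Of its 20 genes 17 were negative (median −0.81), and 1 was a DEG higher in salinity. This was LOC105037886, with 3.31, 3.33 and 3.2 CPM in drought, 7.91, 7.48 and 8.72 in salinity and 1.56, 3.55 and 2.28 in control (log2FC = −1.29 ± 0.31, adjusted p = 0.0181), a call lost without any drought library or without salinity library 3 (adjusted p = 0.0709, 0.0577, 0.052 and 0.0566).

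**Figure D5:**
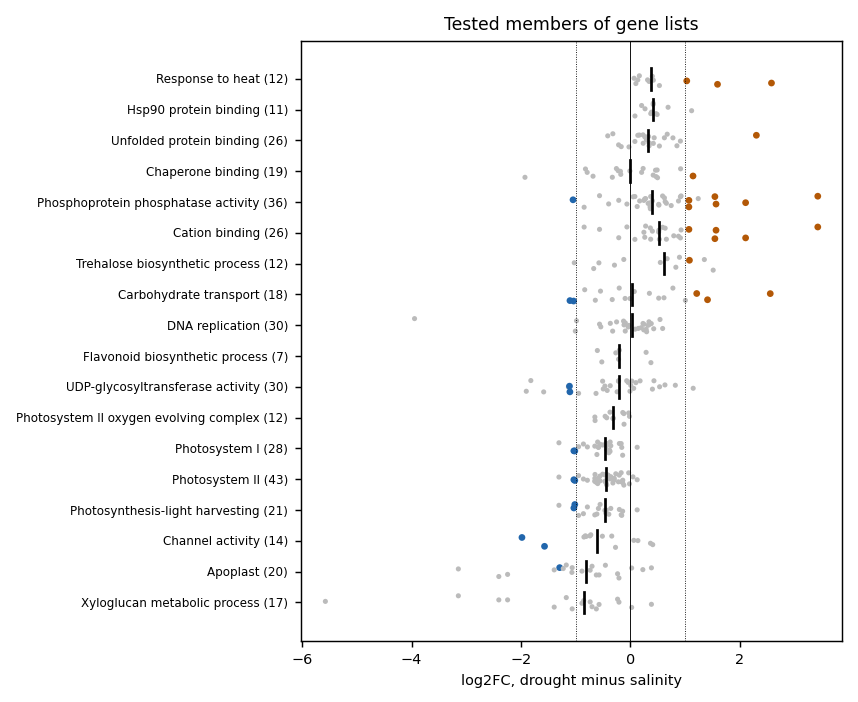
Each point is a tested member of a gene list at its log2FC of drought minus salinity, with the number of members after the name; brown and blue points are DEGs higher in drought and in salinity, grey points are not DEGs, black bars are medians and dotted lines mark 2-fold. Medians run from 0.61 for trehalose to −0.85 for xyloglucan, lists that were partly chosen on these libraries, and most members lie inside the dotted lines.

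Other stress pathways gave few or no DEGs between the treatments. None of 7 genes for flavonoid biosynthesis was called by edgeR, DESeq2 or limma, none had an unadjusted p under 0.05, and the median log2FC was −0.21. None of their intervals lay inside 2-fold either, so differences of that size are not excluded. This term was listed by the study for drought and salinity, so it was chosen on these libraries. None of 25 genes for ethylene signalling was called by any of these tools (median 0.01), with 8 at an unadjusted p under 0.05, against 24.9% of all genes, and 2 past the adjusted p alone, against 8.43%. Intervals lay inside 2-fold for 9 of the 25, and the study listed the term for drought and heat. Of 30 genes for DNA replication 3 had an unadjusted p under 0.05 and none was called by these tools, with a median of 0.03 and 18 intervals inside 2-fold. The 30 genes for UDP-glycosyltransferase activity included 2 DEGs higher in salinity (none without drought library 1 and 5 with DESeq2) and none higher in drought, with a median of −0.21. They were listed by the study for drought, and 12 of the 30 intervals lay inside 2-fold. None of 10 tested receptor-like kinases of the study's core response was called by these tools, and 3 had an unadjusted p under 0.05. Only 3 of the 10 intervals lay inside 2-fold.

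Inositol-3-phosphate synthase, the first enzyme of inositol synthesis, was abundant in both stresses. LOC105048608 had 859, 1105 and 1321 CPM in drought, 1014, 764 and 702 in salinity and 61.7, 122 and 101 in control. Drought and salinity overlapped, and the 95% interval of the log2FC was −0.13 to 0.94. LOC105032996 had 101, 131 and 194 CPM in drought, 541, 223 and 232 in salinity and 49.3, 68.4 and 65.4 in control (log2FC = −1.23 ± 0.47, adjusted p = 0.115), with salinity library 1 apart from the other salinity libraries. None of the 3 genes was a DEG in edgeR, and DESeq2 called LOC105032996 (adjusted p = 0.0492).

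Most DEGs carry no description in the sources used here: 97 of the 661 had a description or a GO term. Of those without one, LOC105040382 had 20.7, 20.9 and 11.8 CPM in drought, 0.565, 1.41 and 1.38 in salinity and 0.101, 0.0514 and 0 in control (log2FC = 3.96 ± 0.44, adjusted p = 0.000168). LOC105041255 had 10.4, 12.51 and 10.3 CPM in drought, 0.879, 0.953 and 1.48 in salinity and 0, 0 and 0.0506 in control (log2FC = 3.31 ± 0.35, adjusted p = 0.000114). Higher in salinity were LOC105057201, with 12.8, 29.8 and 31.8 CPM in drought, 567, 206 and 360.4 in salinity and 206, 493.6 and 503 in control (log2FC = −3.93 ± 0.76, adjusted p = 0.00582), and LOC105050253, with 1.24, 1.67 and 1.48, 10.2, 10.3 and 11.7 and 3.52, 1.8 and 3.95 CPM (log2FC = −2.88 ± 0.34, adjusted p = 0.000242). The first pair was near 0 in control, LOC105057201 overlapped between control and salinity, and every salinity library of LOC105050253 was above all others.

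The place of the control level differed between the directions, as a description of group means with no test. Of the 271 DEGs higher in drought, the control mean lay below both stresses in 177, between them in 66 and above both in 28. Of the 390 higher in salinity, it lay below both in 70, between them in 175 and above both in 145. Over all genes tested the control mean was below both in 37.7%, between them in 18.5% and above both in 43.7%.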

How the data were processed

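RNA-Seq libraries of leaves were grouped by their titles. Reads left after adapter and quality filtering were aligned by the authors with TopHat2 to an oil palm genome, and HTSeq counted them per gene. Neither the assembly version nor the strand setting is stated in the sources used here, and overlapping genes or near-identical copies may share reads. The deposited counts are whole, unnormalized read counts, and the deposited FPKM values are the authors' counts divided by gene length and library total. Low genes were removed with filterByExpr (minimum count 10, minimum total 15). One model over all 18 libraries was fitted in edgeR 4.0.16 (R 4.3.3) with TMM scaling and a coefficient per group, which shares 12 residual degrees of freedom (common biological coefficient of variation 0.215); the standard error is the log2FC divided by the square root of F. Depth limits genes of few reads; no library repeats another (replicates of a group differed with a chi-square of 16.1 to 58.7 per degree of freedom). The script was checked on simulated data.

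Alternatives were size factors of DESeq2 or library totals, DESeq2 1.42.0, limma 3.58.1 on log2(FPKM + 1), other filters, the 6 libraries alone, glmTreat, a replicate block and leaving out each library. The comparison, genes and lists were chosen with earlier results of these data known. Named genes were the 15 DEGs with the largest change in each direction with at least 5 CPM in a group, the DEGs with the smallest adjusted p and the most abundant members per list, and genes that the study named. Not all of them are printed, and 22 of the 64 genes described above fall outside this rule and were chosen for their annotation after their values were seen. Not among the 64 are LOC105047143, LOC105047117, LOC105032992 and LOC105051742, given under the other observations. These were chosen for their levels in single libraries, after the values were seen. Names come from the study or from an NCBI table of assembly EG11, which 25941 of 29750 numbered genes matched. Cell type markers and lists built from gene descriptions were not used here, since no descriptions were at hand.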

Additional observations from a re-analysis of the deposited data

How the results depend on the processing

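With all libraries 661 DEGs were called, 271 higher in drought and 390 higher in salinity. DESeq2 called 649 genes higher in salinity, 467 of the tested genes having no adjusted p. Limma on log2(FPKM + 1) called 377, with 166 higher in salinity, and a minimum of 5 CPM left 389, of which 156 were higher in drought and 233 in salinity. Against the 2-fold limit itself (glmTreat) 28 genes were called, 21 and 7, and by adjusted p alone 2008, of which 1226 and 782. Leaving out each library in turn gave 313 to 613 DEGs, 185 to 279 higher in drought and 128 to 334 higher in salinity. The fewest were left without drought library 1, and the count higher in salinity fell by more than 1.5 times without drought library 2 (210) and salinity library 1 (219) or 2 (259) as well. The cause was not tested. DESeq2 size factors (655), library totals (631), no count filter (636) and the 6 libraries alone (685) kept the total within 1.5 times, with 641, 591, 625 and 507 of the 661 called again, and the share higher in drought ran from 35.9 to 48.7% among them. Library totals moved the median log2FC of all genes from 0.02 to 0.06. Of the 58 printed DEGs, 52 stayed called with library totals, 57 with DESeq2 size factors, 58 with DESeq2 and 45 with limma; none changed its sign.

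Groups share replicate numbers, but the numbers did not pair the libraries: deviations of same-numbered libraries from their group means correlated by −0.15, 0.04 and −0.26, and 0 of 3 correlated best with their own number. With the replicate number as a block 660 DEGs were called, 265 higher in drought and 395 in salinity, 595 of them shared with the fit without the block. Precision is limited by 3 libraries a group and by low counts: 7328 genes that were not called could differ by 2-fold within their 95% intervals.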

Other observations

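DEGs stood next to each other along the chromosomes, by the gene order of assembly EG11, in 22 of 13779 adjacent pairs of tested genes, 18 of them with both genes in the same direction and 4 in opposite directions. The order held 599 of the 661 DEGs, which were 2.77% of all genes tested. Whether 22 is more than a random order would give was not tested. The 18 pairs formed 15 runs of 2 or 3 genes, 5 higher in drought and 10 higher in salinity. They included the heat-response neighbours LOC105042708 and LOC105042707 and a run of 3 higher in drought that ends with LOC105041255 and has log2FC of 1.65, 2.25 and 3.31. In a further run LOC105058393, the light-harvesting gene, stood beside a gene with a log2FC of −1.17. Reads of overlapping neighbours cannot be told apart here, since the strand setting is not given, and near-identical neighbours may also share reads.

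Some genes were read in some libraries of a group and hardly in others, and differed widely between the treatments without being DEGs. They were chosen after their values were seen, like the counts that follow. LOC105047143 had 44.3, 40.9 and 0.123 CPM in drought, 0, 0 and 0 in salinity and 0, 0.72 and 81.7 in control (adjusted p = 0.098 in edgeR). LOC105047117 was likewise high in drought libraries 1 and 2 and control library 3, with 20.9, 25.5 and 0 CPM in drought, 0, 0 and 0 in salinity and 0, 0.0514 and 17.9 in control (adjusted p = 0.0707). Among the drought, salinity and control libraries, LOC105032992 was read almost only in salinity library 2. It had 0, 0 and 0 CPM in drought, 0, 17.6 and 0 in salinity and 0.101, 0 and 0 in control (adjusted p = 0.156 in edgeR). In the study it is listed as raised under waterlogging and unique to that stress. Counting genes with at least 5 CPM in 1 library of a group and at most 0.1 CPM in another gave 16 in drought, 16 in salinity and 12 in control, none of them a DEG. In drought 11 of the 16 were near 0 in library 3, and in salinity 14 of the 16 were near 0 in library 1.

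Among genes with at least 5 CPM and at least 4 times the level of both other libraries of the group in salinity library 2 (21 genes, against 2 in library 1 and 15 in library 3), 13 were also at least 4 times lower in control library 2 than in both other control libraries, which held for 339 of all 23830 tested genes. None of the 21 genes was a DEG. LOC105051742, listed under cellular oxidant detoxification, had the same lowest control library but fell outside the 21, with 0.148, 0.257 and 0.246 CPM in drought, 0.439, 13.6 and 5.45 in salinity and 10.4, 0.771 and 14.7 in control (log2FC = −4.91 ± 1.63, adjusted p = 0.074). Of 744 tested gene models that the authors added without an NCBI number, 15 were DEGs (2.02%, against 2.77% of all genes tested), 11 higher in drought (1.48%, against 1.14%) and 4 in salinity.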
